A study of Mus musculus with 45 samples.

Results

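Aminoacyl-tRNA synthetases join each amino acid to its tRNA, and their mRNAs were followed here in blood-forming cells of the fetal mouse liver. The genes were taken by symbol: a letter for an amino acid followed by ars, with nothing, 1 or 2 after it, plus Eprs, Eprs1, Farsa and Farsb, with Lars2 left out. The rule matched 21 rows of the deposited table, and without Lars2 it gave 20 of the 13449 genes. Of these, 4 encode cytosolic enzymes or subunits (Farsa, Farsb, Mars1 and Wars1) and 16 encode mitochondrial enzymes (among them Aars2, Cars2, Ears2, Fars2, Hars2, Iars2, Mars2, Nars2, Pars2, Rars2, Sars2, Tars2, Vars2, Wars2 and Yars2). The set therefore holds mostly mitochondrial synthetases, and the other cytosolic synthetases are not analysed here.

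Most synthetases recognise 1 amino acid and the matching tRNAs, and the charged tRNA then delivers the amino acid to the ribosome. Cytosolic enzymes serve translation of nuclear-encoded mRNAs, while a separate nuclear-encoded set is imported into mitochondria and serves translation of the mitochondrial genome, which encodes core subunits of the respiratory chain. The enzymes fall into class I and class II by unrelated catalytic domains, and each class held 10 of the 20 genes. In developing red cells the demand for protein is dominated by globin, and mitochondria are used for heme synthesis before they are cleared from the cell. Several cytosolic synthetase genes are targets of ATF4, the transcription factor of the integrated stress response, which is activated when translation initiation is restrained.

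Livers were taken at E15.5 from litters of VavCre females and males with both alleles of Rpl5 or of Rps19 floxed, so every embryo carried 1 floxed allele of Rpl5 or of Rps19. Rpl5 and Rps19 encode proteins of the large and the small ribosomal subunit. Cre under the Vav promoter drives recombination in the blood lineage. The genotypes were Rpl5flox/+ and VavCre Rpl5flox/+, Rps19flox/+ and VavCre Rps19flox/+. The floxed genotypes without VavCre served as controls, and VavCre without a floxed allele is not among the groups. Homogenates were exposed to emetine, which halts elongating ribosomes, at 25 µg/mL for 15 min. Magnetic beads gave Kit+ cells, a fraction with the progenitors, and then Ter119+ cells, which are maturing erythroid cells, from the Kit- remainder. Equal numbers of cells were pooled within a genotype, and each pool was spun through sucrose of 10 to 50% to give a cytoplasm and a polysome fraction of the same cells. Poly(A) RNA of 45 libraries in 16 groups was sequenced. VavCre Rpl5flox/+ Kit+ polysome held 1 library, Rpl5flox/+ Ter119+ polysome held 2, and the other 14 groups held 3 each. The labels number the pools but do not say which litters they came from, so p-values measure the spread between pools.

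Depth in cytoplasm was 22.9 to 70.1 M reads for Kit+ and 45.0 to 123 M for Ter119+ libraries. On polysomes it was 1.01 to 37.6 M for Kit+ and 1.02 to 39.8 M for Ter119+ libraries. Reads of Lars2 made up 0.382 to 54.9% of these in Kit+ and 0.165 to 35.1% in Ter119+ polysome libraries. All 20 synthetase genes were detected in every cytoplasm library, the lowest value being 24 reads, and all 20 passed the filter on low values in every comparison. In polysome libraries 14 of the 20 were at 0 reads somewhere. Those zeros numbered 42 in 10 libraries, and 25 of them were in the 4 libraries under 2 M reads. Levels below are normalized counts (reads divided by the size factor of the library), given with the SD and n. Changes are differences of the deposited log2 values with the standard error. A gene was called when its adjusted p in limma was under 0.05 after adjustment over all genes tested, and called genes are said to be higher or lower. The share of all genes called stands beside each count.

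The targeted genes were measured first, as a check of the labels. In Kit+ cytoplasm Rpl5 stood at 531 ± 81.3 with VavCre Rpl5flox/+ and 1046 ± 100 in controls (n = 3 each), and Rps19 at 12939 ± 1409 with VavCre Rps19flox/+ and 18037 ± 1985 in controls (n = 3 each). Rpl5 stood lower in the Rps19 line too, at 643 ± 135 with VavCre and 965 ± 89.6 in controls (n = 3 each). In Ter119+ cytoplasm Rpl5 was not lower with the label, at 500 ± 47.0 in libraries labelled VavCre Rpl5flox/+ and 368 ± 83.6 in controls (n = 3 each). On Ter119+ polysomes it stood at 547, 410 and 6334 in the libraries so labelled and at 110 and 226 in controls. The value of 6334 came from 208 reads in a library of 1.02 M reads, and the control values from 23 and 72 reads. Cell markers of these groups differed too, as given below, and their part in the Rpl5 values was not tested. Rps19 in Ter119+ cytoplasm overlapped, at 10787 to 13709.6 with VavCre Rps19flox/+ and 13048 to 15378 in controls. On Ter119+ polysomes it was apart, at 14497 to 16139 against 27675 to 34246. Cdkn1a, a p53 target, stood at 7400.4 to 8263 in the Ter119+ cytoplasm libraries labelled VavCre Rpl5flox/+ and 130 to 139 in their controls. Because bulk RNA was sequenced, fewer cells of a type and less RNA per cell cannot be told apart in any result below.

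Gene positions are those of GRCm38.p6, the RefSeq annotation of the build that the submitters name as mm10. Mars1 lies at chr10:127296221-127311786 and overlaps Ddit3 by 71 bases, Vars2 at chr17:35655634-35667639, Wars1 (Wars in the annotation) at chr12:108860030-108894175, Farsa at chr8:84856969-84869257 and Farsb at chr1:78417958-78488897. Some members share bases with another gene, and reads of the shared bases could belong to either: Farsb shares 2332 bases with Sgpp2, Iars2 shares 115 with Rab3gap2 and Wars1 shares 24 with Wdr25. Hars2 and Hars share 4 bases, and Rars2 and Orc3 share 7. Fars2 and Wars2 overlap the non-coding gene Gm40912 and the pseudogene Gm18982. Whether counting used the strand is not given in the sources used here.

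Upstream sequence was read from a RefSeq table of promoters (GRCm38.p6), which held 16 of the 20 genes. The 250 bases before the start were searched on both strands for GCATGCGC (bound by NRF1, a factor of mitochondrial gene expression), CCGGAAGT (bound by the ETS factor GABPA) and TGATGNAA (a form of the CARE element bound by ATF4). The NRF1 letters were found in 3 of the 16 (Wars2, Rars2 and Vars2), against 4.33% of the promoters of all genes in the deposited table. The GABPA letters were found in 2 of the 16 (Farsa and Mars1), against 5.79%, and the CARE letters in 0 of 16, against 2.04%. A match is a description of letters, not a binding site. Shown here are the windows of a mitochondrial and a cytosolic enzyme that differed in the results below. Neither window holds bases of its own annotated gene. Overlap of the windows with other genes was not examined, and Rars2 shares 7 bases with Orc3. The sequences run 5′ to 3′ along the gene, with the match in capitals. Rars2, at chr4:34614707-34614956 on the plus strand, has the NRF1 letters. Mars1, at chr10:127311787-127312036 on the minus strand, has the GABPA letters on the opposite strand.
Rars2: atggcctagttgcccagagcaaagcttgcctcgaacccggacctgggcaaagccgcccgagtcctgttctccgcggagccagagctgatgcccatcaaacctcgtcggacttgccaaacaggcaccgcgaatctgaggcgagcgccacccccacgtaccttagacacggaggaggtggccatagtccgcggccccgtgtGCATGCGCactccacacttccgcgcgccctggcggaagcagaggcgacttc
Mars1: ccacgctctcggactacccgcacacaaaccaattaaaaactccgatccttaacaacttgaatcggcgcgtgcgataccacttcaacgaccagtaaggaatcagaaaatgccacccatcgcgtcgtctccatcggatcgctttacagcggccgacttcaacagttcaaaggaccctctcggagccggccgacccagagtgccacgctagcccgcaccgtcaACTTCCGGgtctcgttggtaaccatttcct

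The first comparison asked how synthetase mRNAs differ between Ter119+ and Kit+ cells of the controls, in cytoplasm, before any VavCre effect. Relative to the size factors, 14 synthetases were lower in Ter119+ cells and 2 were higher, Fars2 and Mars1. Size factors did not follow depth. For Rpl5flox/+ replicate 1 they were 3.98 at 38.9 M reads in Kit+ and 1.19 at 58.8 M in Ter119+ cytoplasm. Directions as shares of all reads can therefore differ and were not tested. Most mitochondrial enzymes were lower, 12 of 16, while among the cytosolic ones Farsb and Wars1 were lower and Mars1 higher. The median difference of the 20 genes was -0.75 and that of all genes tested -0.13, and 42.7% of all genes were lower and 35.8% higher. By class, 9 of 10 class I genes and 5 of 10 class II genes were lower, and the difference between the classes was not tested. With libraries rescaled, that is each shifted so that its median difference over abundant genes (mean normalized count 500 or more) was 0, the median of all genes moved to -0.58, 29.6% in place of 45.6% of the called genes were higher, and 18 of the 20 were lower and 2 higher.

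Ears2, the mitochondrial glutamyl-tRNA synthetase, which also charges the mitochondrial glutamine tRNA in a misacylated form, showed the largest difference of the 20. Its normalized counts in Kit+ cytoplasm were 219, 217 and 236 in Rpl5flox/+ and 239, 233 and 243 in Rps19flox/+. In Ter119+ cytoplasm they were 27.8, 45.4 and 32.1 in Rpl5flox/+ and 57.1, 45.1 and 98.1 in Rps19flox/+. No Ter119+ control reached any Kit+ control, and the difference was -2.0 ± 0.16 (limma adjusted p = 3.29e-08). In this comparison 16 of the 20 genes had groups without overlap, as had 60.3% of all genes. Aars2, for alanine, fell from 255 ± 40.2 to 69.4 ± 26.5 (n = 6 each; -1.73 ± 0.19). Rars2, for arginine, fell from 398 ± 19.8 to 135 ± 38.0 (-1.49 ± 0.14), and Vars2, for valine, from 374 ± 51.3 to 142 ± 46.4 (-1.34 ± 0.14). Yars2, Tars2, Cars2 and Mars2, for tyrosine, threonine, cysteine and methionine, had differences between -1.16 and -1.01, and Wars2, Pars2, Iars2 and Sars2 between -0.81 and -0.67.

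Fars2, the single-chain mitochondrial phenylalanyl-tRNA synthetase, ran the other way. It stood at 261, 242 and 305 in Rpl5flox/+ and 254, 293 and 279 in Rps19flox/+ Kit+ cells, and at 775, 1047 and 437 and 559, 532 and 510 in the Ter119+ cells of the same lines. Every Ter119+ control was above every Kit+ control (1.14 ± 0.16, limma adjusted p = 1.50e-05), with a wide spread within Ter119+ Rpl5flox/+. Mars1, the cytosolic methionyl-tRNA synthetase and a member of the multisynthetase complex, stood at 1189 ± 119 in Kit+ and 2541 ± 869 in Ter119+ cells (n = 6 each; 1.03 ± 0.17, limma adjusted p = 7.47e-05). The cytosolic phenylalanyl-tRNA synthetase is built from the alpha subunit Farsa and the beta subunit Farsb, which did not move alike. Farsb fell by 0.57 on the log2 scale (1164 ± 165 against 1726 ± 48.9), and Farsa, at 1356 ± 104 against 1406 ± 78.6, had a 95% interval of -0.22 to 0.11. Nars2 and Hars2, which charge mitochondrial tRNAs for asparagine and histidine, passed no threshold, with differences of 0.09 ± 0.10 and -0.15 ± 0.12.

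**Figure D1:**
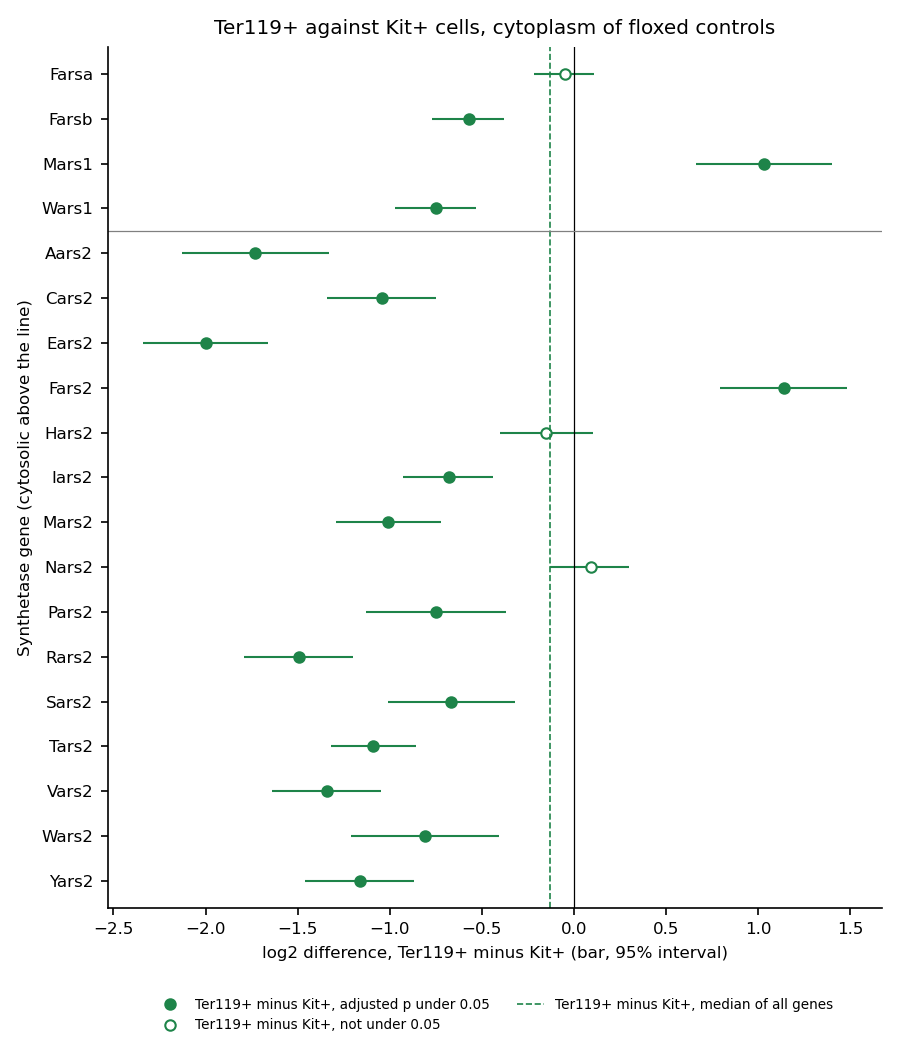
Difference in synthetase mRNA between Ter119+ and Kit+ cells, cytoplasm of the floxed controls (x axis, log2 difference with 95% interval; y axis, gene; filled, adjusted p under 0.05; dashed line, median of all genes). Of the filled points, Fars2 and Mars1 lie to the right of 0 at 1.14 and 1.03 and 14 genes lie to the left, and Ears2 is farthest at -2.0.

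The same cells differed in the genes around the synthetases. All 3 non-enzyme scaffold genes of the multisynthetase complex were lower in Ter119+ controls, with Eef1e1 at -1.25 ± 0.12, Aimp1 at -1.10 ± 0.11 and Aimp2 at -0.20 ± 0.07. Of 14 genes for tRNA charging and editing partners, 11 were lower and 0 higher. Among them were Dtd1, which removes D-amino acids from tRNA (-2.02 ± 0.12), Trmt5, a tRNA methyltransferase (-1.28 ± 0.13), and Pstk, which acts in making selenocysteyl-tRNA (-1.23 ± 0.13). Of 25 integrated stress response genes tested, 14 were higher and 6 lower. The transporter pair Slc7a5 and Slc3a2, which imports large neutral amino acids, stood 3.07 ± 0.15 and 2.56 ± 0.14 higher, while Phgdh, the entry enzyme of serine synthesis, fell by 1.81. Markers went with the labels: all 8 erythroid markers were higher and all 8 Kit+ progenitor markers lower in Ter119+ cells. All 8 macrophage and all 10 hepatocyte markers were also higher there, and the part of those cells in the synthetase differences was not tested.

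The next comparison asked how these mRNAs differ between VavCre Rps19flox/+ and Rps19flox/+ Kit+ cells. With VavCre Rps19flox/+, 16 of the 20 synthetase genes were higher in Kit+ cytoplasm and 0 were lower, while 27.6% of all genes were higher and 26.1% lower. Both compartments were involved, 3 of the 4 cytosolic genes and 13 of the 16 mitochondrial ones. The median change was 0.60, against 0.01 over all genes tested, and 15 of the 20 genes had groups without overlap, as had 60.9% of all genes. All 20 estimates were above 0. Called changes of the genes named here ran from 0.35 to 0.94. Leaving out 1 library at a time gave 14 to 17 called genes, and rescaling gave 14, with 41.1% in place of 51.4% of all called genes higher.

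Vars2 changed most among the mitochondrial genes. It stood at 320, 423 and 407 in Rps19flox/+ and at 866, 675 and 706 with VavCre, so all VavCre libraries were above all controls (0.94 ± 0.14, limma adjusted p = 8.18e-05). Mars1, at 1107, 1283 and 1295 in controls, stood at 2508, 2152 and 2405 with VavCre (0.93 ± 0.13, limma adjusted p = 5.14e-05). Wars1, the cytosolic tryptophanyl-tRNA synthetase, stood at 820, 937 and 917 in controls and 1799.7, 1549 and 1642 with VavCre (0.89 ± 0.09, limma adjusted p = 6.50e-06). For each of these 3 genes the lowest VavCre library exceeded the highest control by more than the range within either group.

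Farsa rose from 1439 ± 71.7 to 2335 ± 228 (n = 3 each; 0.69 ± 0.08), and Farsb, its partner subunit, stood at 1904 ± 321 against 1731 ± 22, with overlapping groups and a 95% interval of -0.10 to 0.34. Among the other mitochondrial genes Mars2, Pars2, Yars2, Nars2, Aars2 and Tars2 rose by 0.62 to 0.71, and Sars2, Iars2 and Cars2 by 0.53 to 0.58. Fars2 and Hars2 changed by 0.43 and 0.35. Hars2 lost its call in 1 of the 6 fits with 1 library left out, without VavCre replicate 3, and when libraries were rescaled (0.25). Ears2 stood at 239, 233 and 243 in controls and 254, 229 and 237 with VavCre, overlapping throughout, with a 95% interval of -0.21 to 0.22. Rars2 and Wars2 also overlapped, at 0.10 ± 0.13 and 0.27 ± 0.18.

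**Figure D2:**
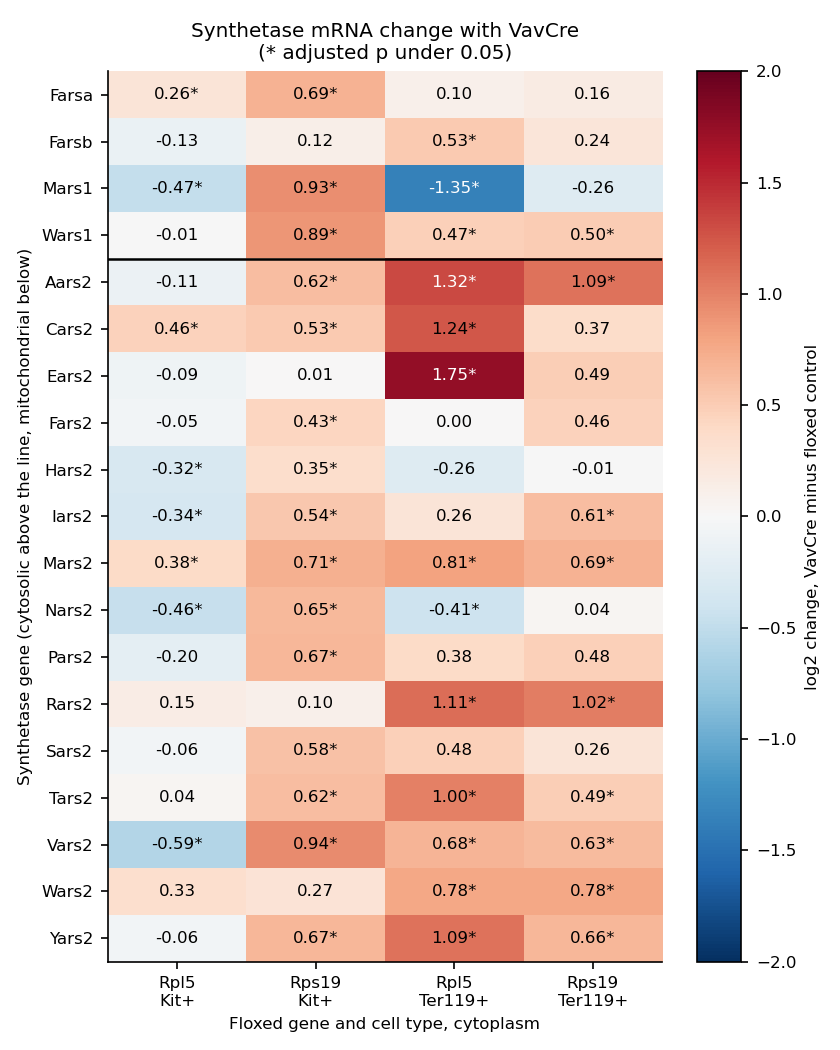
Change of each synthetase mRNA with VavCre in cytoplasm (rows, genes; columns, floxed gene and cell type; colour and number, log2 change; star, adjusted p under 0.05). Of the genes drawn, the column for Rps19 in Kit+ cells holds 15 stars, all positive, and the column for Rpl5 in Kit+ cells holds 3 positive and 5 negative stars.

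Members of related lists moved in both directions in these cells. Of the scaffold genes, Aimp2 was higher (0.26 ± 0.08), Aimp1 lower (-0.42 ± 0.09) and Eef1e1 not called. Among the 14 charging and editing partners 4 were higher, among them Mtfmt, which formylates the mitochondrial initiator tRNA (0.45 ± 0.12), and 1 was lower, the peptidyl-tRNA hydrolase Ptrh2 (-0.37 ± 0.10). Of 22 integrated stress response genes tested, 10 were higher and 6 lower, and the smallest adjusted p were those of Ddit4 (3.20 ± 0.20), Sesn2 (2.30 ± 0.17) and Slc7a5 (0.64 ± 0.09). Ddit4 and Sesn2 restrain the growth kinase mTORC1 and are also p53 targets.

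Markers of other cell types moved with this contrast. All 10 granulocyte and monocyte markers were lower with VavCre Rps19flox/+, their summed normalized count being 3493 to 7383 against 15894 to 20283 in controls. All 7 B-lymphoid markers (25.4 to 52.0 against 608 to 1237) and all 7 megakaryocyte markers (360 to 422 against 835 to 915) were lower as well. Of 8 Kit+ progenitor markers 5 were lower (3412 to 4228 against 4179 to 4940.3), and of 8 erythroid markers 2 were higher and 1 lower (22778 to 30715 against 20516 to 26391). No marker was at 0 in all libraries of these groups. The part of a changed mix of cells in the rise of the synthetases was not tested.

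In the Rpl5 line the same cells gave a different picture. With VavCre Rpl5flox/+, 3 of the 20 synthetase genes were higher in Kit+ cytoplasm (Cars2, Mars2 and Farsa) and 5 lower (Vars2, Mars1, Nars2, Iars2 and Hars2), while 20.8% of all genes were higher and 16.4% lower. The median change was -0.08 and that of all genes 0.03. The changes were small, between -0.59 and 0.46. For 9 of the 20 genes the groups were apart, a share below the 51.0% of all genes.

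Vars2 stood at 313, 356 and 426 in Rpl5flox/+ and 235, 230 and 242 with VavCre, where every library was below every control (-0.59 ± 0.14, limma adjusted p = 0.00406). Mars1 stood at 1120.5, 1027 and 1302 in controls and 704, 793 and 1005 with VavCre, the highest VavCre library lying just under the lowest control (-0.47 ± 0.13, limma adjusted p = 0.0106). Iars2, for isoleucine, stood at 1163, 1194 and 1135 in controls and 869, 901 and 986 with VavCre (-0.34 ± 0.08, limma adjusted p = 0.00514). Cars2 stood at 387, 374 and 399 in controls and 525, 528 and 562 with VavCre, with a clear gap between the groups (0.46 ± 0.09, limma adjusted p = 0.00136). Cars2 and Mars2 (0.38 ± 0.11) were the mitochondrial genes that rose, and Farsa (0.26 ± 0.08) the cytosolic one. Nars2 and Hars2 fell by 0.46 and 0.32. Wars1, at 880 ± 43.0 against 888 ± 82.9, had a 95% interval of -0.21 to 0.19.

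Several of these calls rest on all 3 libraries of a group. The count of 8 became 5 without VavCre replicate 1, VavCre replicate 2 or control replicate 3. Hars2 and Farsa were each lost in 4 of the 6 fits with 1 library left out (-0.41 to -0.25 and 0.22 to 0.31), Nars2 in 3, and Mars1 and Mars2 in 2 each. Vars2, Iars2 and Cars2 were called in all 6. Libraries of the same replicate number deviated together in this comparison, and a block on that number again gave 8 calls.

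Around the synthetases, Aimp1 was the 1 scaffold gene called (0.27 ± 0.09). Of 14 charging and editing partners 3 were higher and 4 lower, with Ptrh2 at -0.43 ± 0.10 and Sepsecs at -0.54 ± 0.12. Of 22 integrated stress response genes 7 were higher and 3 lower, with Ddit4 at 2.67 ± 0.20, Cebpb at 1.39 ± 0.16 and Atf5 at 0.94 ± 0.14. The cells of this contrast also differed in their markers. Of 8 erythroid markers 7 were lower with VavCre Rpl5flox/+ (summed 6370.5 to 8809 against 21222 to 21439), and all 7 B-lymphoid markers were lower (267 to 341 against 1174 to 1559). Higher were all 10 hepatocyte markers (21698 to 40110.3 against 5589 to 17926), 7 of 10 granulocyte and monocyte markers (46788 to 86789.9 against 22052 to 24078) and 5 of 8 Kit+ progenitor markers (6278 to 7168 against 4751 to 5467). Their part in the synthetase changes was not tested.

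Both lines were then set against each other, each with its own controls. The change with Rpl5 was lower than the change with Rps19 for 13 of the 20 synthetase genes in Kit+ cytoplasm and higher for 0, while 25.0% of all genes were lower and 23.2% higher. The median difference was -0.61, and that of all genes 0.04. Largest was Vars2 (-1.53 ± 0.19, limma adjusted p = 4.56e-05), followed by Mars1 (-1.40 ± 0.18, limma adjusted p = 5.15e-05), Nars2 (-1.11 ± 0.18), Wars1 (-0.90 ± 0.13) and Iars2 (-0.88 ± 0.11). Hars2, Iars2, Mars1, Nars2 and Vars2 were called lower in the Rpl5 line and higher in the Rps19 line. Cars2, Farsa and Mars2 were called higher in both, and for Cars2 the lines differed by -0.06, with a 95% interval of -0.34 to 0.21. Ears2, Rars2 and Wars2, which were not called in either line, differed between them by -0.10, 0.05 and 0.07. Between 12 and 15 genes were called with 1 library left out, and 11 with libraries rescaled, where 61.5% in place of 48.1% of all called genes were higher. In this difference all 10 granulocyte and monocyte markers were higher and 7 of 8 erythroid markers lower, and their part in it was not tested.

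**Figure D3:**
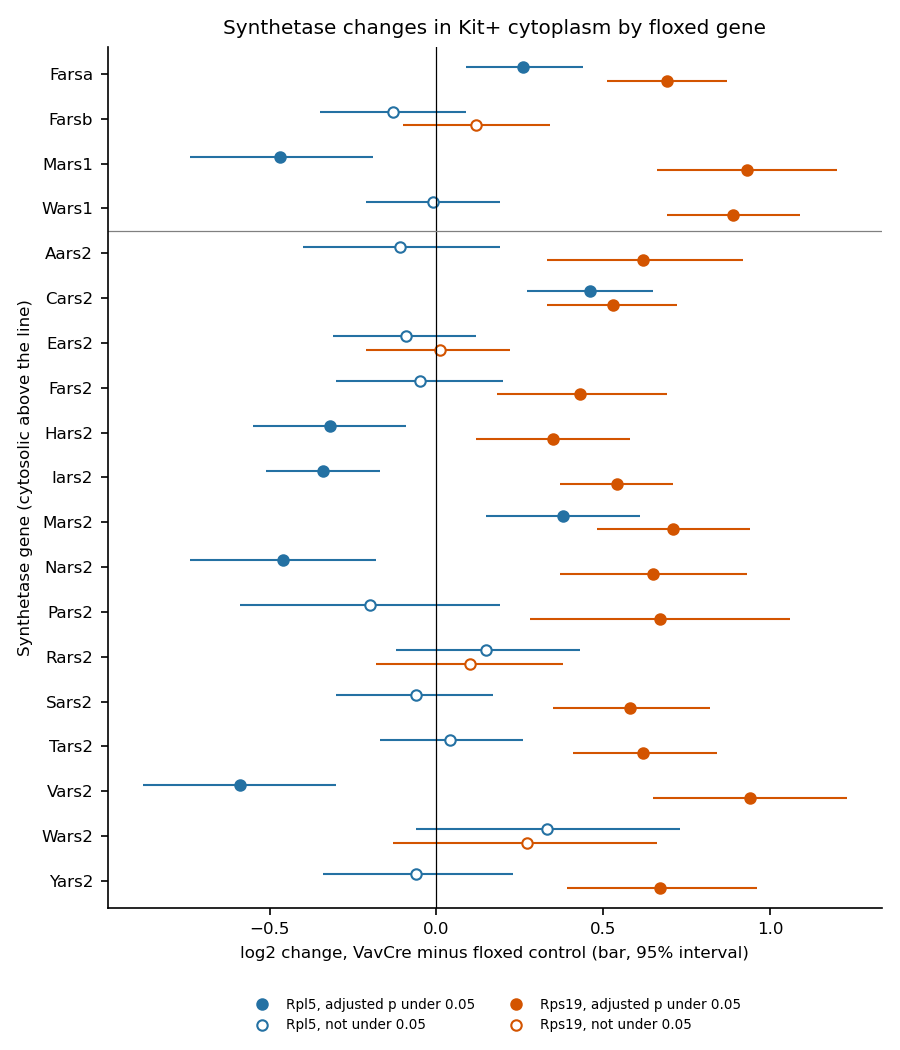
Change of synthetase mRNAs with VavCre in Kit+ cytoplasm in the Rpl5 line (blue) and the Rps19 line (orange) (x axis, log2 change with 95% interval; filled, adjusted p under 0.05). Vars2, Mars1 and Nars2 lie on opposite sides of 0, at -0.59, -0.47 and -0.46 in the Rpl5 line and 0.94, 0.93 and 0.65 in the Rps19 line.

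In Ter119+ cytoplasm of the Rps19 line, 9 of the 20 synthetase genes were higher with VavCre and 0 were lower, while 12.5% of all genes were higher and 13.3% lower. Of these 9, 8 were mitochondrial (Aars2, Rars2, Wars2, Mars2, Yars2, Vars2, Iars2 and Tars2) and 1 cytosolic (Wars1). The median change was 0.48 and that of all genes -0.03, and 12 of the 20 had groups without overlap, as had 43.1% of all genes. Without 1 library, 2 to 7 genes were called: 4 without control replicate 1, 3 without control replicate 2, 5 without VavCre replicate 1 and 2 without VavCre replicate 3. With libraries rescaled 9 were again called, and 62.2% in place of 48.4% of all called genes were higher.

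Rars2 stood at 115, 126 and 113 in Rps19flox/+ and 254, 241 and 269 with VavCre, a gap far wider than either group (1.02 ± 0.21, limma adjusted p = 0.00314). Aars2 stood at 66.0, 117 and 53 in controls and 200, 154 and 173 with VavCre (1.09 ± 0.26, limma adjusted p = 0.00908). These 2 genes kept their calls in all 6 fits with 1 library left out. Wars2 changed by 0.78 ± 0.24, Mars2 by 0.69 ± 0.23, Yars2 by 0.66 ± 0.18, Vars2 by 0.63 ± 0.19, Iars2 by 0.61 ± 0.18, Wars1 by 0.50 ± 0.14 and Tars2 by 0.49 ± 0.17. Each of these 7 lost its call in 3 or more such fits, and Tars2 lost it in all 6. Mars1, which rose in Kit+ cells of this line, stood here at 2131, 2958 and 2424 in controls and 2110.2, 2066 and 2027 with VavCre (-0.26 ± 0.24, limma adjusted p = 0.453), so the VavCre libraries were low and close together while the controls were spread.

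In the Rpl5 line, 11 of the 20 genes were higher in Ter119+ cytoplasm of libraries labelled VavCre Rpl5flox/+ and 3 were lower, against 35.3% and 30.1% of all genes. The median change was 0.50 and that of all genes 0.16. With libraries rescaled to the abundant genes the median of all genes moved to 0.73, 76.0% in place of 54.0% of the called genes were higher, and 16 synthetase genes were called higher and 1 lower. With replicate number as a block, 14 were again called.

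Ears2 stood at 27.8, 45.4 and 32.1 in Rpl5flox/+ and 134, 133 and 180 in libraries labelled VavCre, the largest rise of the 20 (1.75 ± 0.28, limma adjusted p = 9.08e-05). Aars2 stood at 71.6, 38.0 and 71.2 in controls and 175, 144 and 184 with VavCre (1.32 ± 0.26, limma adjusted p = 5.95e-04). Rars2, at 158, 98.1 and 201 in controls and 363, 297 and 341 with VavCre, rose by 1.11 ± 0.21 (limma adjusted p = 3.28e-04). None of the groups of these 3 genes overlapped, as was so for 15 of the 20 genes and 71.7% of all genes. Cars2 (1.24 ± 0.20), Yars2 (1.09 ± 0.18), Tars2 (1.00 ± 0.17), Mars2 (0.81 ± 0.23), Wars2 (0.78 ± 0.24) and Vars2 (0.68 ± 0.19) were higher too, as were the cytosolic Farsb (0.53 ± 0.14) and Wars1 (0.47 ± 0.14).

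Mars1 fell. It stood at 4084, 1898 and 1753 in Rpl5flox/+ and 1005, 901 and 878 in libraries labelled VavCre Rpl5flox/+, with 1 control far above the other 2 and all controls above the VavCre libraries (-1.35 ± 0.24, limma adjusted p = 2.57e-04). The call was kept in all 6 fits with 1 library left out. Size factors were 0.816 to 1.56 in these controls, at 54.0 to 58.8 M reads. In the VavCre libraries they were 2.41 to 2.96, at 50.0 to 53.6 M reads. A fall of Mars1 as a share of all reads was not tested. Nars2 was lower by the deposited values, at -0.41, but turned positive with libraries rescaled (0.15), and it lost its call in 4 of the 6 fits with 1 library left out. Farsa, Hars2, Iars2, Fars2, Pars2 and Sars2 were not called.

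**Figure D4:**
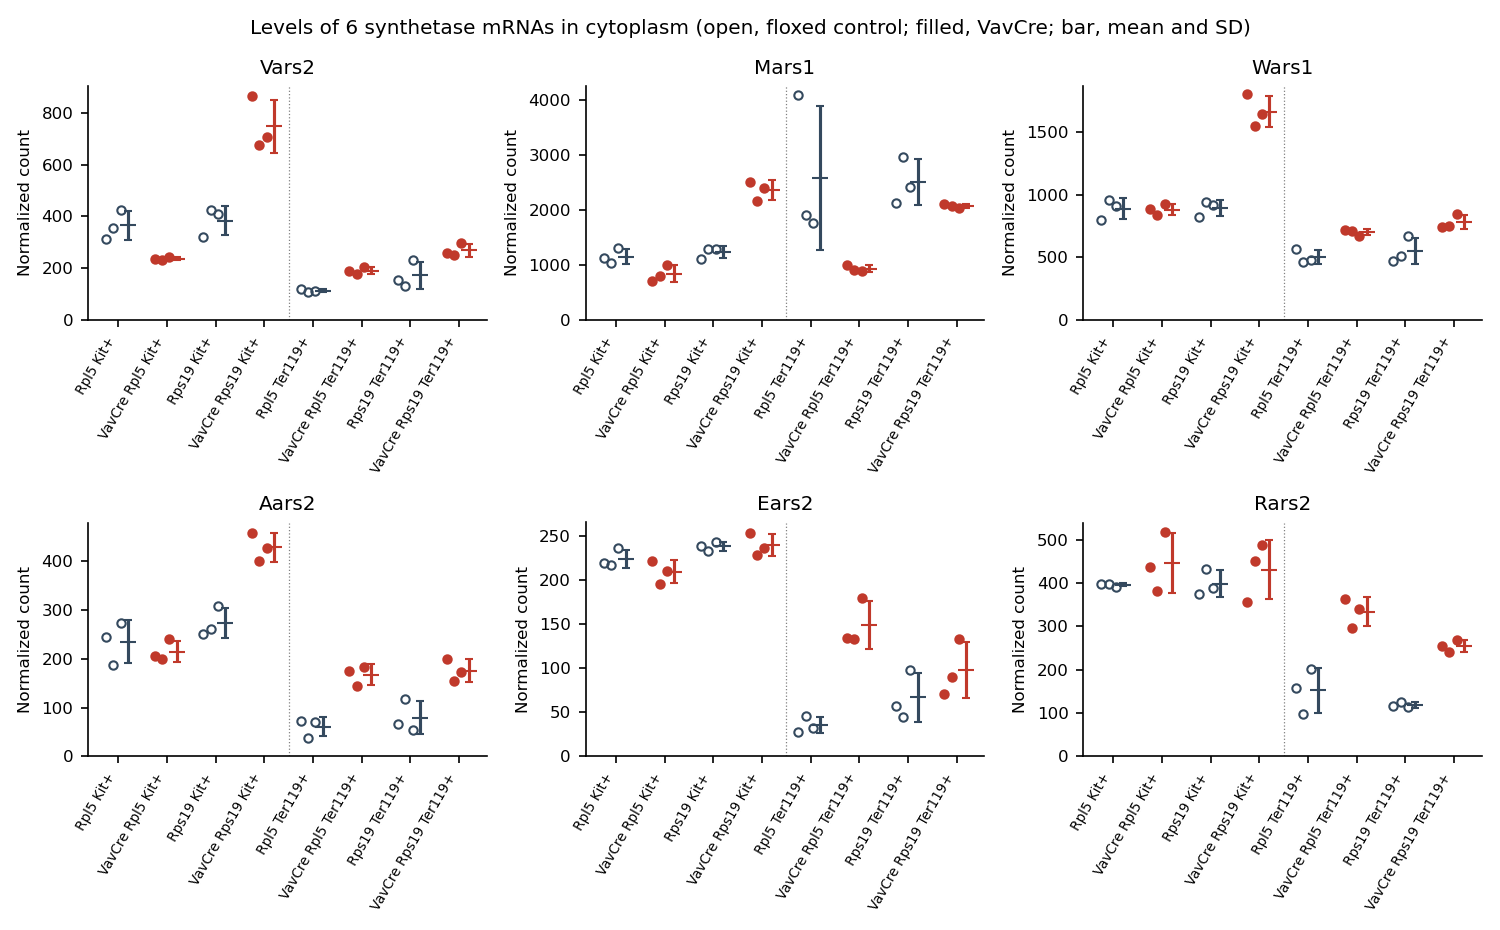
Normalized counts of 6 synthetase mRNAs in each cytoplasm library (y axis, linear from 0; x axis, genotype and cell type; open, floxed control; filled, VavCre; bar, mean and SD of 3 libraries). Vars2 and Wars1 stand highest with VavCre Rps19flox/+ in Kit+ cells, Mars1 reaches 4084 in a Ter119+ control, and Aars2, Ears2 and Rars2 are lower in Ter119+ than in Kit+ controls.

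Both lines shared 8 called increases in Ter119+ cytoplasm (Aars2, Mars2, Rars2, Tars2, Vars2, Wars1, Wars2 and Yars2), which is 8 of 11 in the Rpl5 line and 8 of 9 in the Rps19 line. Over all genes 1066 were called higher in both, 27.6% of those in the Rpl5 line and 78.2% of those in the Rps19 line. A test of the difference between the lines called 3 genes. Ears2 (1.26 ± 0.39, limma adjusted p = 0.0203) and Cars2 (0.87 ± 0.28, limma adjusted p = 0.0250) rose more with Rpl5, and Mars1 fell more (-1.09 ± 0.34, limma adjusted p = 0.0215), while 20.5% of all genes were higher and 20.9% lower. With 1 library left out Cars2 lost this call in 5 of 12 fits, Ears2 in 2 and Mars1 in 0. The count was 6 without Rpl5flox/+ replicate 3 and 1 without VavCre Rps19flox/+ replicate 1. With libraries rescaled 5 genes were higher and 0 lower, Mars1 lost its call (-0.64), and 75.8% in place of 49.5% of all called genes were higher. For Vars2, Wars2 and Wars1 the lines differed by 0.05, 0.00 and -0.03, with 95% intervals of -0.53 to 0.62, -0.74 to 0.74 and -0.46 to 0.41.

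Other genes of the pathway moved as follows in Ter119+ cytoplasm. In libraries labelled VavCre Rpl5flox/+, 9 of 14 charging and editing partners were higher and 2 lower, with Dtd1 at 1.62 ± 0.19 and Pstk at 1.04 ± 0.19. Scaffold genes Eef1e1 and Aimp1 were higher (1.11 ± 0.19 and 0.86 ± 0.16) and Aimp2 lower (-0.32 ± 0.12). Of 25 integrated stress response genes 6 were higher and 11 lower, among them Slc7a5, which fell from 20812 ± 7705 to 2399 ± 262 (n = 3 each; -3.04 ± 0.23). In the Rps19 line 1 of 14 partners was higher, Dtd1 (0.96 ± 0.19), and no scaffold gene was called. There 19 of 25 integrated stress response genes were lower and 2 higher, with a median of -0.96 against -0.03 over all genes. Atf5, a transcription factor of that response, fell from 927 ± 174 to 237 ± 12 (n = 3 each; -1.89 ± 0.15), and Ddit4 and Sesn2 were higher (2.51 ± 0.25 and 1.61 ± 0.21).

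The makeup of the Ter119+ libraries moved with genotype. In libraries labelled VavCre Rpl5flox/+ all 8 Kit+ progenitor markers were higher (summed 3178 to 3285 against 323 to 714) and all 8 erythroid markers lower (158923 to 217906 against 725593 to 1598840.0). There 8 of 10 granulocyte and monocyte markers were higher (35052 to 70422 against 6178 to 10568). With VavCre Rps19flox/+ 1 of 8 erythroid markers was lower (631061 to 716188 against 768094 to 916132), 2 of 8 Kit+ progenitor markers were higher and 2 lower (822 to 1077 against 430 to 523), and 7 of 10 granulocyte and monocyte markers were lower (1852 to 3050.1 against 5277 to 8952). Macrophage markers were lower for 7 of 8 in that line (720 to 1204 against 1465 to 4731). The controls of these comparisons are also those of the Ter119+ against Kit+ comparison, in which Ears2, Aars2 and Rars2 had the largest falls, so both sets of values share libraries. The part of the mix of cells in the synthetase changes was not tested.

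Whether a genotype effect differed between cell types was tested next, as the change in Ter119+ minus the change in Kit+ cytoplasm of the same line. In the Rpl5 line 10 of the 20 genes changed more upward in Ter119+ cells and 1 more downward, against 25.8% and 22.6% of all genes. Rescaling gave 12 and 1, with 65.5% in place of 53.3% of all called genes higher. Ears2 (1.84 ± 0.29), Aars2 (1.43 ± 0.30), Vars2 (1.27 ± 0.23) and Yars2 (1.15 ± 0.23) led the first group, and Mars1 (-0.89 ± 0.29) was the gene in the second. Vars2 changed direction between the cell types, being called lower in Kit+ and higher in Ter119+ cells. Without VavCre Rpl5flox/+ Kit+ replicate 3 the call of Mars1 was lost, and its estimates without 1 library ran from -1.11 to -0.50.

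In the Rps19 line 1 gene changed more upward in Ter119+ cells, Rars2 (0.92 ± 0.24), and 3 more downward, Mars1 (-1.19 ± 0.29), Nars2 (-0.61 ± 0.20) and Farsa (-0.53 ± 0.15), against 3.93% and 8.35% of all genes. Aars2, Iars2, Mars2, Tars2, Vars2, Wars1 and Yars2 were higher with VavCre Rps19flox/+ in both cell types. Their 95% intervals for the difference between cell types all held 0 except that of Wars1 (-0.73 to -0.05, limma adjusted p = 0.124). The count of 4 fell to 1 without VavCre Rps19flox/+ Kit+ replicate 1, to 2 without control Kit+ replicate 1 and to 2 without VavCre Rps19flox/+ Ter119+ replicate 3. Nars2 lost its call in 10 of 12 such fits. Rescaling left 1 gene in each direction, with 53.5% in place of 32.0% of all called genes higher.

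The polysome fraction was set against the cytoplasm of the same pools in the controls. Over all genes the median difference was -1.32 in Kit+ and -0.66 in Ter119+ cells, and values are read against these medians. In Kit+ cells 2 of the 20 synthetase genes were higher on polysomes and 5 lower, against 7.69% and 37.4% of all genes. In Ter119+ cells 0 were higher and 7 lower, against 4.81% and 21.9%. Among the cytosolic genes none was called in Kit+ cells, with differences from -0.49 to 0.19, and Mars1 was called lower in Ter119+ cells (-0.58 ± 0.17), though by less than the median of all genes. The Mars1 call was lost in 3 of 5 fits with 1 pool left out and with libraries rescaled (-0.15).

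Tars2 had the clearest polysome excess in Kit+ cells. It stood at 1647, 1613 and 1344 in Rpl5flox/+ and 1038, 1544 and 1429 in Rps19flox/+ polysomes, against 755 to 858 in cytoplasm, with no overlap (0.81 ± 0.19, limma adjusted p = 0.00956). Ears2 stood at 404, 412 and 865 and at 519, 364 and 993 on polysomes, against 217 to 243 in cytoplasm (1.2 ± 0.36, limma adjusted p = 0.0242). Its call was lost without Rpl5flox/+ replicate 3 or Rps19flox/+ replicate 3, the libraries with the 2 highest values, and estimates without 1 pool ran from 1.04 to 1.31. Those 2 polysome libraries held 1.81 and 1.83 M reads, of which 49.4% and 54.9% were Lars2. In Ter119+ cells Tars2 and Ears2 were not called (0.07 ± 0.28 and 0.60 ± 0.52). Of 10 hepatocyte markers 5 were also higher on Kit+ polysomes and 0 lower, with a median of 0.89. Their sum was 22249 to 34537 on polysomes against 5589 to 17926 in cytoplasm for Rpl5flox/+, and 7340.1 to 35203 against 3583 to 9257 for Rps19flox/+. No hepatocyte marker was at 0 in these groups, and their part in the polysome excess was not tested.

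Nars2, Hars2, Wars2 and Iars2 were called lower on polysomes in both cell types, in Kit+ cells among a smaller share of synthetases than of all genes. Nars2 stood at 64.6, 31.7 and 0 in Rpl5flox/+ and 0, 34.4 and 0 in Rps19flox/+ Kit+ polysomes, against 193 to 273 in cytoplasm (-3.64 ± 0.79, limma adjusted p = 0.00615). Hars2 stood at 60.5, 99.9 and 146 and at 0, 36.4 and 0 on Kit+ polysomes, against 253 to 320 in cytoplasm (-2.90 ± 0.83, limma adjusted p = 0.0205). Zeros enter both values, and a fitted difference with zeros depends on the transformation. Iars2 had reads in every library, at 593, 375 and 253 and at 789, 614 and 185 on Kit+ polysomes against 1118 to 1194 in cytoplasm (-1.43 ± 0.32, limma adjusted p = 0.00723), close to the all-gene median. Wars2 (-2.37 ± 0.76) lost its Kit+ call in 3 of 6 fits with 1 pool left out. Without Rpl5flox/+ Kit+ replicate 3 the 7 calls became 4.

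In the 5 Ter119+ control pools with a polysome library, Nars2 (-2.69 ± 0.80), Mars2 (-2.51 ± 0.69), Wars2 (-2.28 ± 0.63), Hars2 (-1.46 ± 0.47) and Iars2 (-1.04 ± 0.31) were among those lower besides Mars1. Wars2 was at 0 reads in all 3 Rps19flox/+ polysome libraries. These calls were few without any 1 pool: 0 without Rpl5flox/+ replicate 2, 2 without Rps19flox/+ replicate 1, 2 without replicate 2, 3 without replicate 3 and 4 without Rpl5flox/+ replicate 1. With libraries rescaled 1 was called, Mars2, and 50.8% in place of 18% of all called genes were higher.

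**Figure D5:**
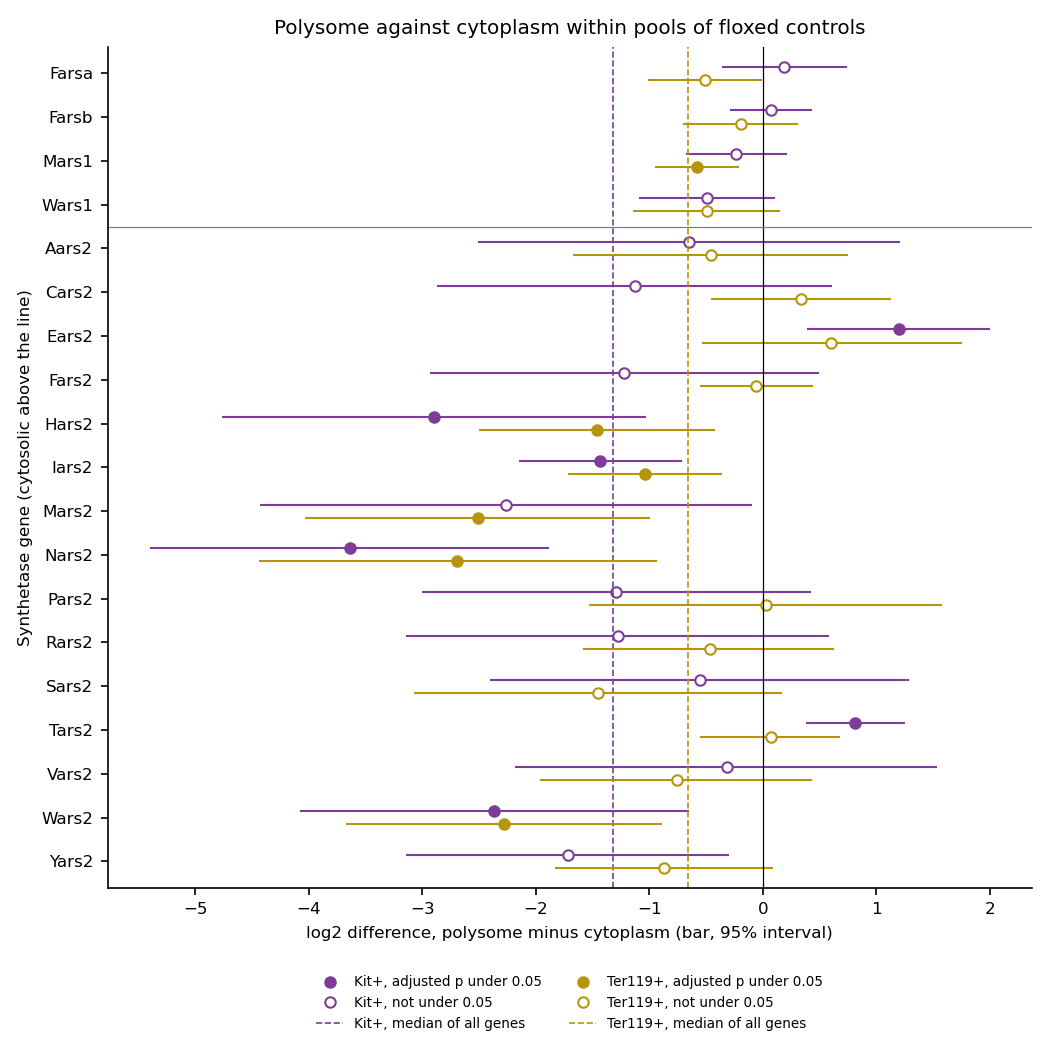
Polysome minus cytoplasm difference of synthetase mRNAs within control pools in Kit+ (purple) and Ter119+ cells (gold) (x axis, log2 difference with 95% interval; filled, adjusted p under 0.05; dashed lines, medians of all genes at -1.32 and -0.66). Tars2 and Ears2 in Kit+ cells lie to the right of 0, Nars2 lies farthest left in both cell types, and most mitochondrial genes have wide intervals.

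Polysomes of Ter119+ and Kit+ controls were also compared directly. Fars2 was higher in Ter119+ polysomes (2.48 ± 0.86) and Ears2 and Tars2 lower (-2.56 ± 0.58 and -1.92 ± 0.34), 1 and 2 of 20 against 16% and 7.26% of all genes, with an all-gene median of 0.56. Fars2 lost its call in 8 of 11 fits with 1 library left out and when libraries were rescaled (2.10), where 54.7% in place of 68.8% of all called genes were higher. Fars2 and Ears2 differed in the same direction in cytoplasm, as did Tars2, but both comparisons rest on the same pools.

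Genotype effects on polysomes were measured with little precision. With VavCre Rps19flox/+ in Kit+ polysomes 1 of 20 genes was higher and 0 lower, against 6.19% and 3.68% of all genes, with an all-gene median of 1.11. That gene was Hars2, at 0, 36.4 and 0 in controls and 210, 227 and 252 with VavCre (4.10 ± 1.12, limma adjusted p = 0.0469). Its call was lost in 5 of 6 fits with 1 library left out, 3 genes being called without Rps19flox/+ replicate 2 and 0 in the other fits. The controls hold 2 libraries under 2 M reads. Wars1 had no zeros, at 498, 524 and 437 in controls and 1073, 877 and 1161 with VavCre, and missed the threshold (1.06 ± 0.37, limma adjusted p = 0.0945). Ears2, at 519, 364 and 993 against 318, 257 and 228, lay lower in every VavCre library without being called (-1.07 ± 0.53, limma adjusted p = 0.200). Here 8 of the 20 genes and 45.1% of all genes had groups without overlap.

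In Ter119+ polysomes 0 of 20 genes were called in either line. For Rps19 0.226% of all genes were higher and 0.575% lower, and 4 synthetase genes had an unadjusted p under 0.05, while limma voom on whole reads called 1. For Rpl5 2.96% of all genes were higher and 10.3% lower, and 0 synthetase genes had an unadjusted p under 0.05, and voom called 0. Rescaling gave 1 synthetase gene, with 55.6% in place of 22.3% of all called genes higher. Tars2, at 297 and 336 in controls and 1187, 1095 and 365 in libraries labelled VavCre Rpl5flox/+, lay above both controls in all 3 libraries, with a difference of 1.27 ± 0.65 (limma adjusted p = 0.224). The last of these libraries held 1.02 M reads, and without it 1 synthetase gene was called in place of 0.

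Loading, the change with VavCre on polysomes beyond that in cytoplasm of the same pools, was tested last. For Rps19 in Kit+ cells 1 of 20 genes was higher and 0 lower (Hars2, 3.75 ± 0.95, limma adjusted p = 0.0429), against 5.81% and 2.70% of all genes, and the call was lost in 5 of 6 fits with 1 pool left out. The median of all genes was 1.19. Control polysome libraries held 1.01, 7.17 and 1.83 M reads and VavCre ones 10.8, 24.4 and 37.6 M. Hars2 was at 0 reads in the 2 controls under 2 M reads. Without Rps19flox/+ replicate 2 the count was 2, and it was 0 in the other fits. With libraries rescaled it was 0, and 55.3% in place of 68.3% of all called genes were higher. For Rps19 in Ter119+ cells 0 genes were called, 2 had an unadjusted p under 0.05 and voom called 0, against 0.00918% of all genes higher and 0.00918% lower. For Rpl5 in Ter119+ cells 0 were called, 0 had an unadjusted p under 0.05 and voom called 0, against 0% and 0.00918%. The median of all genes in Ter119+ cells was 0.55 for Rps19 and -1.21 for Rpl5. Without VavCre Rpl5flox/+ replicate 2, 828 of 10799 genes were called, with 0 synthetases among them.

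VavCre Rpl5flox/+ Kit+ polysome had 1 library, so its values carry no test. Mars1 stood there at 574 against 838 to 977 in Rpl5flox/+, Vars2 at 93.2 against 375 to 858, and Hars2 at 491 against 60.5 to 146. Wars1 was at 1269 and within the controls (600 to 1304), and Tars2 at 1470.1 was within 1344 to 1647. Pars2, Wars2 and Yars2 were at 0 reads in that library. Its hepatocyte markers summed to 90153 against 22249 to 34537 in Rpl5flox/+, and its granulocyte and monocyte markers to 123073 against 39489 to 49403. Erythroid markers went the other way, at 2979.6 against 11594 to 16449.9. Their part in these values was not tested.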

How the data were processed

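The labels' protocols name a Watchmaker mRNA kit and 100 bp paired-end reads, and the submitters' processing notes name mm10. The sources used here do not give the aligner or the counter. The authors deposited 1 table of log2 values for 45 libraries. The values fit reads divided by a size factor of each library and a variance-stabilising transformation: inverted, 100% were whole reads within a relative tolerance of 1e-06, and the lowest value, 2.92263, was 0 reads. Differences on this scale understate changes of low genes. Groups came from the labels. Genes whose normalized counts averaged 10 or more over the libraries of a comparison were tested with limma 3.58.1 in R 4.3.3 (lmFit and eBayes with trend), the 4 genotypes of a cell type and fraction sharing 1 estimate of spread, with Benjamini-Hochberg adjustment over all genes and a threshold of 0.05. Fits of fraction and loading had the pool as a block. Kit+ and Ter119+ pools were compared as unpaired groups, although Ter119+ cells came from the Kit- remainder. The labels do not say which Kit+ and Ter119+ pools shared livers. Code was tested on simulated data. All synthetases could be named, but 1 is not reported here by itself and is left out of the figures; counts and medians over the 20 genes include it. Of other lists only the 3 genes with the smallest adjusted p and genes at 0, and, as label checks, Rpl5, Rps19 and Cdkn1a were named. The members and lists were chosen with earlier results of these data known. Libraries of the same replicate number deviated together in cytoplasm of the Rpl5 line (correlations of 0.24 to 0.30 in Kit+ and 0.13 to 0.27 in Ter119+ cells). In Ter119+ cytoplasm of the Rps19 line the correlations ran from 0.01 to 0.36. In the other comparisons of VavCre with controls they ran from -0.04 to 0.07. Alternatives were log2 of the normalized count plus 1, no filter, libraries rescaled by genes with a mean of at least 500, limma voom on whole reads, a replicate block or none, the 2 groups alone, no libraries under 2 M reads, and each library left out.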

Additional observations from a re-analysis of the deposited data

Results flagged for a closer look

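Differences between lines or cell types that were tested directly and passed the threshold in limma (adjusted over all genes) are collected here as log2 differences. In Kit+ cytoplasm the change in the Rpl5 line was lower than that in the Rps19 line for 13 genes: Vars2 (-1.53), Mars1 (-1.40), Nars2 (-1.11), Wars1 (-0.90), Iars2 (-0.88), Pars2 (-0.87), Aars2 (-0.73), Yars2 (-0.73), Hars2 (-0.67), Sars2 (-0.65), Tars2 (-0.58), Fars2 (-0.48) and Farsa (-0.43). In Ter119+ cytoplasm the lines differed for Ears2 (1.26), Cars2 (0.87) and Mars1 (-1.09).

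In the Rpl5 line the change in Ter119+ cells exceeded that in Kit+ cells for Ears2 (1.84), Aars2 (1.43), Vars2 (1.27), Yars2 (1.15), Tars2 (0.96), Rars2 (0.95), Cars2 (0.77), Farsb (0.65), Iars2 (0.60) and Wars1 (0.48), and was below it for Mars1 (-0.89). In the Rps19 line the same difference was 0.92 for Rars2, -1.19 for Mars1, -0.61 for Nars2 and -0.53 for Farsa. Hars2 differed between polysome and cytoplasm in its change with VavCre Rps19flox/+ in Kit+ cells (3.75). It was at 0 reads in 2 of the 3 control polysome libraries of that comparison.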

How the results depend on the processing

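Counts of called synthetase genes are compared here with those in the report, and the cause of each shift was not tested unless fewer libraries give it. For Rps19 in Kit+ polysome the count of 1 was 0 with log2 of the normalized count plus 1, 0 with rescaling and 0 with the replicate block, 2 with voom and 3 without libraries under 2 M reads, and 0 to 3 without 1 library. For Rpl5 in Ter119+ polysome 0 became 1 with rescaling and 1 without libraries under 2 M reads, and ran from 0 to 1 without 1 library. For Rps19 in Ter119+ polysome 0 became 1 with voom and 1 without libraries under 2 M reads. The 3 line differences in Ter119+ cytoplasm became 5 with rescaling and 1 to 6 without 1 library. The 4 differences between cell types in the Rps19 line became 2 with rescaling and 1 to 4 without 1 library. Ter119+ against Kit+ polysome went from 3 to 5 with voom. Polysome against cytoplasm went from 7 to between 4 and 7 in Kit+ cells without 1 pool. In Ter119+ cells it went from 7 to 3 with log2 of the normalized count plus 1, 3 with voom, 3 with no replicate block, 1 with rescaling and 0 to 4 without 1 pool. Rps19 loading in Kit+ cells went from 1 to 0 with rescaling, 2 with no replicate block, 2 without libraries under 2 M reads and 0 to 2 without 1 pool. Without 1 library, Rpl5 in Kit+ cytoplasm gave 5 to 6 in place of 8 and Rps19 in Ter119+ cytoplasm 2 to 7 in place of 9. Rescaling turned Nars2 to 0.15 in Rpl5 Ter119+ cytoplasm. The replicate block changed no other count of called synthetase genes. Over single genes, 826 of the results without 1 library kept their direction and side of the threshold and 119 lost their call. Over all genes, Rps19 Kit+ polysome had 1041 calls and 2248 with no filter, 2155 with voom and 2039 without libraries under 2 M reads. Rpl5 Ter119+ polysome had 1406, 569 with 2 groups alone and 2205 without libraries under 2 M reads. Rps19 Ter119+ polysome had 85, 605 with voom, 397 with 2 groups alone and 673 without libraries under 2 M reads. Polysome against cytoplasm in Ter119+ cells had 2823 and 1781 with rescaling, and Rps19 loading 921 and 1780 with no replicate block in Kit+ cells. In Ter119+ cells it had 2, 69 with voom, 23 with no replicate block and 233 without libraries under 2 M reads, and Rpl5 loading there had 1, 3 with rescaling, 2 with voom and 3 with no replicate block. Polysome against cytoplasm in Ter119+ cells has no value without libraries under 2 M reads, since no control pool there lies under it. Without 1 library or pool the all-gene counts ran from 362 to 2517 for Rps19 Kit+ polysome, 423 to 2407 for Rpl5 Ter119+ polysome, 4 to 189 for Rps19 Ter119+ polysome, 89 to 2599 for Rps19 loading in Kit+ cells, 1 to 30 for it in Ter119+ cells and 0 to 828 for Rpl5 loading.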
